A study of Mus musculus with 24 samples.

Results

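The effect of losing Grn, the gene of progranulin, was measured in the microglia that carried the most lipofuscin in the brains of 19-month-old mice. The comparison set the 6 GrnKO high libraries against the 6 WT high libraries, 12 of the 24 libraries of the series, and ran over all genes that could be tested. WT mice were Grn+/+ and GrnKO mice were Grn-/-, and all 12 animals were C57BL/6J mice carrying the same hTfRmu/hu knock-in, a humanized transferrin receptor. Live cells positive for CD11b and CD45, surface proteins that brain macrophages share with some blood leukocytes, were sorted by their 488 nm autofluorescence into a high and a low bin. Each library came from 1000 cells of 1 animal. Every animal also gave a low-bin library, which enters below for contrast and in the fit that estimates the spread. Each genotype held 3 animals labelled male and 3 labelled female. The Grn-/- genotype is carried by all cells of an animal, so the groups do not isolate a loss in microglia alone. The sources used here do not state the gate bounds, nor whether GrnKO and WT cells were sorted with the same ones.

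Progranulin is a secreted glycoprotein that is delivered to lysosomes and cut there into granulins, and its loss impairs lysosomal protein and lipid turnover. Loss of both copies in humans causes a neuronal ceroid lipofuscinosis, and loss of 1 copy causes frontotemporal dementia. Lipofuscin is the autofluorescent residue of undigested lipid and protein that gathers in lysosomes with age. Microglia are the brain's resident macrophages, they express Grn strongly, and under lysosomal or lipid load they take up a state known as disease-associated, in which lipid, lysosomal and surface genes are raised.

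The GrnKO high libraries held 25.1 to 46.8 M (mega) counts and the WT high libraries 20.7 to 42.2 M, with medians of 32.6 and 31.3 M (2-sided exact permutation test on the difference of means, p = 0.874, n = 6 each). Mitochondrial transcripts took 1.75 to 2.80% of the counts in GrnKO (median 2.31%) and 1.49 to 7.91% in WT (median 1.86%). The same exact permutation test on means, in which the library at 7.91% enters, gave p = 0.946. One library stood apart: the high library of WT animal 1 had the 7.91% mitochondrial share and a summed level of 21099 CPM (counts per M counts) for 9 choroid plexus and ependyma markers, against 755 to 2024 CPM in the other 5 WT high libraries and 30.0 to 1873 CPM in GrnKO. The sex labels went against sex-linked transcripts in all 12 high libraries, since Xist stood at 1012 to 2090 CPM in the 6 labelled male and at 1.35 to 2.11 CPM in the 6 labelled female, and the summed Y-linked transcripts ran the other way. Both genotypes were affected alike, and the labels are used here as labels only. Defining microglia markers were present throughout: 13 of them, among them Cx3cr1, Csf1r and P2ry12, summed to 35401 to 43685 CPM in GrnKO and 23435 to 44067 CPM in WT, and none was called.

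The targeted gene followed the genotype labels. Grn stood at 0.520, 0.963, 1.98, 3.01, 3.74 and 17.9 CPM in GrnKO animals 2, 12, 8, 10, 6 and 4, and at 600 to 1477 CPM (median 867) in the WT libraries. Every GrnKO library lay below every WT library, and Grn was lower by a log2 fold change of -7.78 (SE 0.96, adjusted p = 0.000282, edgeR quasi-likelihood test with Benjamini-Hochberg adjustment over all tested genes). GrnKO animal 4 kept the highest residual level, 480 counts, and its low-bin library was again the highest of the knockouts with 460 counts. The sources used here do not state which exons the allele lacks, so the residual reads check the labels but not the lesion.

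Of 14090 genes tested, 23 (0.163%) were called at an adjusted p under 0.05. Of these, 19 (0.135%) were higher in GrnKO and 4 (0.0284%) were lower, and 20 changed by at least 2-fold. Scaled by library size alone, the calls numbered 14 higher and 7 lower, so the share of calls that were higher moved from 82.6% to 66.7% while the median log2 fold change of all genes moved from -0.06 to -0.15. All 6 GrnKO libraries lay above all 6 WT libraries for 102 genes (0.724%) and below them for 49 (0.348%), which became 64 and 75 with library size alone as the scale. The 2 groups did not overlap for 21 of the 23 called genes, the exceptions being Smpdl3a and Egr1. Without regard to adjustment, p was under 0.05 for 397 genes (2.82%) on the higher side and 491 (3.48%) on the lower side. The fold change was positive for 45.8% of the tested genes. These are bulk libraries, in which fewer cells of a type and less RNA per cell cannot be told apart.

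**Figure D1:**
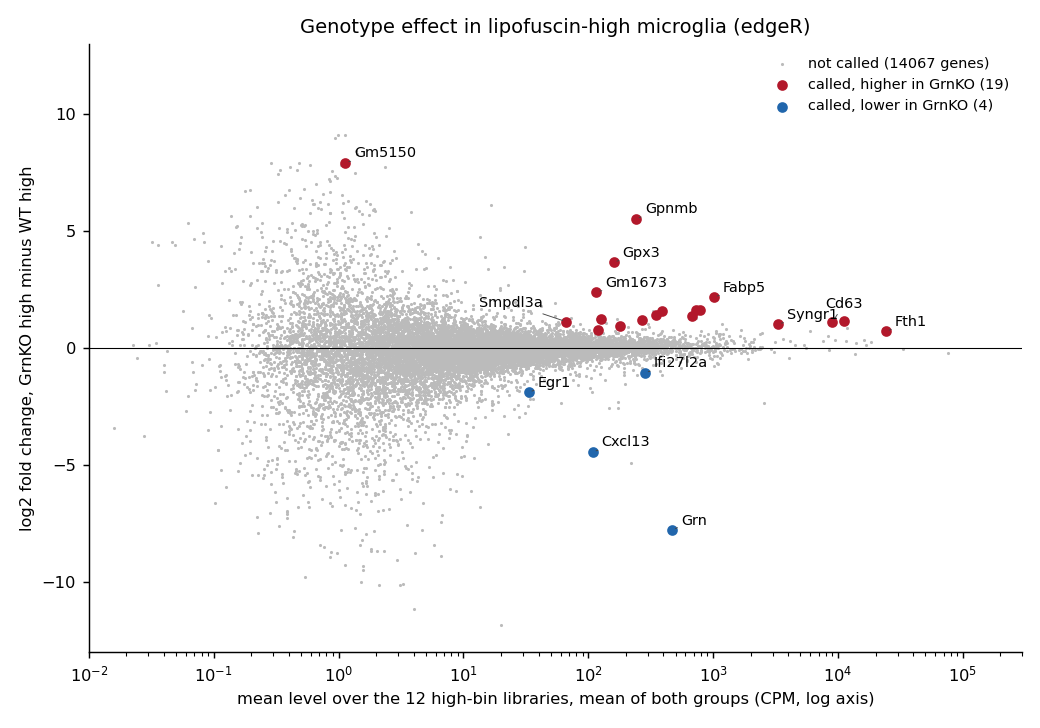
Log2 fold change between GrnKO high and WT high microglia (vertical axis) against mean level in CPM on a log axis (horizontal), 1 point per tested gene. Red points are the 19 genes called higher and blue points the 4 called lower, and most lie at 50 CPM or more where the grey cloud of uncalled genes is narrow.

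Grn, Gpnmb, Fabp5, Cd63, Wfdc17, Ms4a7, Lgals3 and Fth1, 8 of the 23, kept their call whichever 1 of the 12 animals was left out. Each of the other 15 lost its call without GrnKO animal 2, and each also without at least 1 other animal. Igf1 was lost besides without WT animal 3, Cst7 and Gpx3 without WT animal 7, and Anxa5 without WT animal 3 and GrnKO animal 6. Syngr1, Cox6a2, Ctsb and Gm1673 lost their call in 5 of the 12 fits, Bnip3, Ifi27l2a and Egr1 in 8, Gm5150 in 9, Cxcl13 and Smpdl3a in 10 and Gng12 in 11. No called gene changed its direction in any of these fits.

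The genes that rose were led by members of the disease-associated microglia programme. Of 32 programme genes tested, 8 were called higher and 0 lower, against 0.135% and 0.0284% of all genes, and the median log2 fold change was 0.77 against -0.06 for all genes. Lists and members here were drawn up with earlier results of these data known, so the counts describe the list and do not test it. The summed level of the 32 genes ran from 130220 to 182930 CPM in GrnKO and from 73090 to 113830 CPM in WT, with no overlap. The same 8 against 0 became 7 higher and 1 lower with library size alone as the scale, where the median was 0.67. Without the high library of WT animal 1 the counts were 9 and 1. They were 13 and 1 without the 4 libraries of the series richest in choroid plexus transcripts. Over all tested genes, the calls were 19 higher and 4 lower as reported and 14 and 7 with library size alone. They were 21 and 5 without the high library of WT animal 1, and 44 and 17 without the 4 libraries. Those 4 were the high library of WT animal 1 and the low libraries of WT animals 1 and 9 and of GrnKO animal 8.

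Gpnmb, a membrane glycoprotein of lysosomes and the cell surface, had the smallest p of all genes. It stood at 376 to 572 CPM (median 473) in GrnKO and at 4.85 to 29.6 CPM (median 8.53) in WT. The highest WT library, that of animal 5, was still more than 10 times below the lowest GrnKO library. The log2 fold change was 5.54 (SE 0.42, adjusted p = 5.44e-09). Fabp5, an intracellular fatty acid carrier, stood at 1221 to 2531 CPM (median 1463) in GrnKO and 202 to 598 CPM (median 372) in WT, a log2 fold change of 2.18 (SE 0.19, adjusted p = 7.33e-08). Again no GrnKO library reached down into the WT range, and GrnKO animals 2 and 6 were the highest.

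Lgals3, which encodes galectin-3, a lectin that binds the exposed sugars of damaged lysosomes, ran from 781 to 1935 CPM (median 1105) in GrnKO and from 226 to 562 CPM (median 354) in WT. Its log2 fold change was 1.64 (SE 0.26, adjusted p = 0.00274) with separate ranges. Igf1, a secreted growth factor, lay at 132 to 257 CPM (median 166) against 48.2 to 112 CPM (median 78.4), which gave a log2 fold change of 1.23 (SE 0.22, adjusted p = 0.0113). The gap between the highest WT and the lowest GrnKO library was small for Igf1, although the ranges did not touch. Cst7, the gene of cystatin F, an inhibitor of lysosomal cysteine proteases, ran from 693 to 1248 CPM (median 972) against 215 to 638 CPM (median 374), a log2 fold change of 1.38 (SE 0.25, adjusted p = 0.0120). Here too the lowest GrnKO library, from animal 8, stayed above the highest WT library, from animal 9.

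Other members of the programme pointed the same way without being called. Cd68, a heavily glycosylated lysosomal membrane protein of macrophages, had a log2 fold change of 0.90 (SE 0.23, adjusted p = 0.153). Apoe, the lipid carrier, had 0.83 (SE 0.23, adjusted p = 0.244), at 21852 to 38705 CPM in GrnKO against 8475 to 24765 CPM in WT, so the ranges overlapped. Timp2, a metalloproteinase inhibitor, stood at 1386 to 1748 CPM against 350 to 996 CPM without overlap and had a log2 fold change of 1.03 (SE 0.23, adjusted p = 0.0619). Clec7a, the beta-glucan receptor, had 0.64 (SE 0.20, adjusted p = 0.309). The 1 programme gene whose GrnKO libraries all lay below the WT ones was the chemokine gene Ccl6. It stood at 707 to 1040 CPM against 1074 to 1608 CPM, with a log2 fold change of -0.67 (SE 0.15, adjusted p = 0.0607).

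**Figure D2:**
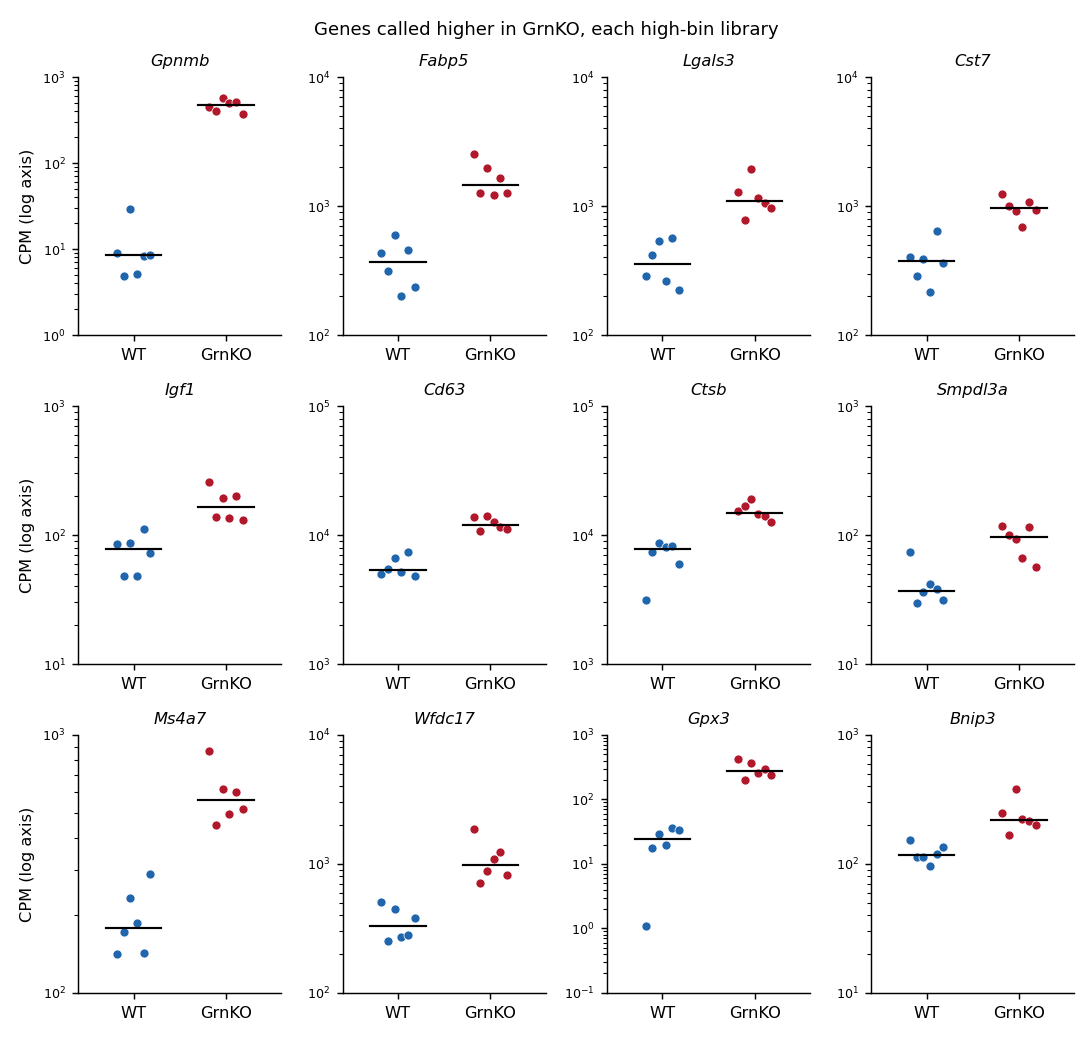
Level in CPM on a log axis of 12 genes called higher in GrnKO, 1 point per high-bin library (6 WT in blue, 6 GrnKO in red) with the group median as a black bar. The groups are separate in every panel but that of Smpdl3a, where the highest WT library (73.4 CPM) lies above the 2 lowest GrnKO libraries, and the Gpx3 panel shows 1 WT library at 1.07 CPM.

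The start regions of these genes are shown because the genes rose together. RefSeq promoters (GRCm38.p6, 250 bases before to 50 after the start) matched 15 of the 19 genes called higher and gave 18 sequences. Both strands were searched for TGANTCA, the core bound by AP-1 factors such as Jun and Fos, which reads the same on both strands, and for CACGTG and GGAAGT, cores bound by MiT/TFE and by ETS factors. No matches of different motifs overlapped in the 4 promoters printed here. TGANTCA was found in 4 of the 18 (22.2%), against 5.09% of the promoters of tested genes and 7.81% of all promoters in the table. CACGTG was in 1 of 18 (5.56%, Bnip3) against 9.82% of those of tested genes, and GGAAGT in 4 of 18 (22.2%) against 28.8%. The 4 promoters with TGANTCA are given 5′ to 3′ on the gene's strand, in lower case with the match in capitals. The match starts at position 9 in Gpnmb, counting the start base as 1, and at positions -37 in Igf1, -6 in Cst7 and -81 from the second of 2 annotated starts of Ms4a7.
Gpnmb (chr6:49036268-49036567, + strand): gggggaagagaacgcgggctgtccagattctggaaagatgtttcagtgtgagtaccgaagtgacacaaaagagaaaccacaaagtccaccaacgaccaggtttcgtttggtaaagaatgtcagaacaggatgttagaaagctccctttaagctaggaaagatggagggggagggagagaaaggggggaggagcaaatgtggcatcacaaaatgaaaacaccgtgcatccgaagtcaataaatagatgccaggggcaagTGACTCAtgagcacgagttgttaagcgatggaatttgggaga
Igf1 (chr10:87860861-87861160, + strand): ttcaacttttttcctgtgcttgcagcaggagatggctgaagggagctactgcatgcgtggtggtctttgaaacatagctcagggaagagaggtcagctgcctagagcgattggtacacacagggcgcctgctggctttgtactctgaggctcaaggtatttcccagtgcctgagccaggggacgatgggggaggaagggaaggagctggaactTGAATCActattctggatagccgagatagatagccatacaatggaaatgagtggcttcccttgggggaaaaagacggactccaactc
Cst7 (chr2:150570165-150570464, + strand): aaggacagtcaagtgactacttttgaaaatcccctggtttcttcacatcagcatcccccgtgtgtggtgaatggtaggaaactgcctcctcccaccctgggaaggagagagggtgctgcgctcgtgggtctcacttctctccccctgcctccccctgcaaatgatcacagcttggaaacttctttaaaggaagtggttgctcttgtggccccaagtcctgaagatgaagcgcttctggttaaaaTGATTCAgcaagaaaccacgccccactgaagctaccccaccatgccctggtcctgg
Ms4a7 (chr19:11334646-11334945, - strand): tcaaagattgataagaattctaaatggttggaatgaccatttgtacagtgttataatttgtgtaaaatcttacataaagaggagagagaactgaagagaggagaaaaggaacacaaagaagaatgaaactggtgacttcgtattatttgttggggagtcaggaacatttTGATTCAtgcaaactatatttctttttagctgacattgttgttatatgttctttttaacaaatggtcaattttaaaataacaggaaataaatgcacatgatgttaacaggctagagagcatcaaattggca
A match describes these letters only and shows neither a bound site nor a cause.

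Few lysosomal genes were called. Of 53 lysosomal hydrolases and their cofactors, 1 was called higher (Ctsb) and 0 lower, against 0.135% and 0.0284% of all genes, 38 had a positive fold change (45.8% of all genes did) and the median was 0.24. Of 31 lysosomal membrane proteins, 1 was called higher (Cd63) and 25 were positive, with a median of 0.22. The summed level of the membrane list was 19847 to 24492 CPM in GrnKO and 10410 to 15005 CPM in WT. Cd63 alone made up a large part of that sum, and without it the sum was 8803 to 10624 CPM against 5382 to 7601 CPM. With library size alone as the scale, Ctsb lost its call (median of the hydrolases 0.14) and Cd63 kept it (median of the membrane list 0.12).

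Cd63, a tetraspanin of late endosomes and lysosomes, stood at 10788 to 14075 CPM (median 11992) in GrnKO and 4801 to 7404 CPM (median 5319) in WT. It more than doubled, by a log2 fold change of 1.10 (SE 0.14, adjusted p = 0.000105), with narrow and separate groups. Ctsb, the cysteine protease cathepsin B, stood at 12689 to 18913 CPM (median 14887) against 3107 to 8674 CPM (median 7734), a log2 fold change of 1.15 (SE 0.22, adjusted p = 0.0199). The 3107 CPM came from WT animal 1, and the other WT libraries were all well below the GrnKO range too. Smpdl3a, a phosphodiesterase related to acid sphingomyelinase, ran from 56.4 to 118 CPM (median 96.4) against 29.8 to 73.4 CPM (median 37.1). Its log2 fold change was 1.13 (SE 0.24, adjusted p = 0.0479), the groups overlapped through WT animal 1, and the call was lost in 10 of the 12 fits that left out 1 animal.

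All GrnKO libraries lay above all WT ones for 8 of the 53 hydrolases and cofactors, against 0.724% of all genes. They were Ctsb and 7 uncalled genes, of which the 3 with the smallest p were Ctsd, the aspartic protease cathepsin D, Npc2, which hands cholesterol out of the lysosome, and Pld3, a lysosomal exonuclease. Ctsd stood at 12135 to 20832 CPM against 3559 to 11238 CPM (log2 fold change 0.84, SE 0.26, adjusted p = 0.309). Npc2 had 0.76 (SE 0.19, adjusted p = 0.157) and Pld3 1.58 (SE 0.42, adjusted p = 0.208). For all 3 genes the lowest WT library was that of animal 1. Lamp1, the abundant lysosomal membrane glycoprotein, had 0.71 (SE 0.17, adjusted p = 0.125) with ranges that overlapped slightly.

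The V-ATPase, the pump that acidifies lysosomes, had 0 of 18 subunits called, yet 15 were positive, 9 had an unadjusted p under 0.05 on the higher side (2.82% of all genes did) and the median log2 fold change was 0.38. All 18 together summed to 7253 to 9860 CPM in GrnKO and 5035 to 6976 CPM in WT, again without overlap. The subunit nearest to a call was Atp6v1g1, of the stalk that links motor and membrane sector, at 1228 to 1491 CPM against 778 to 1017 CPM (log2 fold change 0.54, SE 0.12, adjusted p = 0.0615). Atp6v0c, the proton-carrying ring subunit, had 0.83 (SE 0.20, adjusted p = 0.125). Atp6v0d2, a subunit isoform best known from osteoclasts and macrophages, stood at 11.9 to 52.8 CPM in GrnKO and 0.0240 to 4.08 CPM in WT, separate but variable (log2 fold change 3.89, SE 1.02, adjusted p = 0.185).

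Autophagy genes and the MiT/TFE factors that drive lysosome genes had 0 of 29 members called and a median of 0.25. Gabarap, an autophagosome protein, had a log2 fold change of 0.58 (SE 0.18, adjusted p = 0.306) and Map1lc3b, the LC3 protein, 0.45 (SE 0.15, adjusted p = 0.365). Of 20 genes in a list for the lysosomal lipid BMP and for ganglioside and sphingolipid breakdown, which also holds Npc2 and Pld3, 1 was called, Smpdl3a. Of 26 LXR targets and lipid droplet genes, 1 was called, Fabp5, and 14 were positive. Both called genes were higher, against 0.135% of all genes called higher, and 45.8% of all genes were positive. Sterol synthesis had 0 of 18 called.

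Iron and redox genes were represented by single members. Fth1, the ferritin heavy chain that stores iron, stood at 24924 to 38137 CPM (median 27953) in GrnKO and 13485 to 24859 CPM (median 16657) in WT. The groups were only just separate, WT animal 1 lying next to GrnKO animal 4, and the log2 fold change was 0.71 (SE 0.12, adjusted p = 0.00391). Its partner Ftl1, the light chain, had the same log2 fold change, 0.71, with a larger error (SE 0.16, adjusted p = 0.0768), and none of the other 12 iron genes was called. Gpx3, a secreted glutathione peroxidase, stood at 201 to 416 CPM (median 278) against 1.07 to 35.7 CPM (median 24.1), the 1.07 CPM being WT animal 1. Its log2 fold change of 3.66 (SE 0.66, adjusted p = 0.0129) was the largest rise after that of Gpnmb among called genes above 10 CPM. Gpx3 was the 1 gene called of 28 antioxidant and NRF2 target genes, against 0.135% of all genes called higher. Prdx4, a peroxiredoxin of the endoplasmic reticulum, and Gsto1, a glutathione transferase, were separate between groups without a call, at log2 fold changes of 0.70 (SE 0.19, adjusted p = 0.214) and 1.05 (SE 0.29, adjusted p = 0.240).

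In metabolism, 1 of 22 glycolysis and hypoxia genes was called, Bnip3, a mitophagy receptor induced by hypoxia, against 0.135% of all genes called higher, and the list's median was 0.42 with 16 positive, where 45.8% of all genes were. Bnip3 stood at 167 to 378 CPM (median 219) against 96.3 to 153 CPM (median 117), a log2 fold change of 0.95 (SE 0.19, adjusted p = 0.0219). Gapdh and Aldoa, glycolytic enzymes, were separate between groups and uncalled (0.73, SE 0.21, and 0.76, SE 0.22, with adjusted p = 0.240 and 0.251). Cox6a2, a cytochrome c oxidase subunit isoform best known from heart and skeletal muscle, stood at 352 to 763 CPM (median 472) against 93.1 to 333 CPM (median 153). It rose by a log2 fold change of 1.43 (SE 0.27, adjusted p = 0.0187) as the 1 call among 39 nuclear oxidative phosphorylation genes. None of 13 mitochondrially encoded transcripts was called. Their median was -0.09 with 1 positive, and it turned to 0.39 with all 13 positive without the high library of WT animal 1.

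Ms4a7, an MS4A-family membrane protein of macrophages, stood at 446 to 867 CPM (median 560) in GrnKO and 141 to 288 CPM (median 179) in WT. The log2 fold change was 1.59 (SE 0.25, adjusted p = 0.00274), and the groups were far apart. Of 11 Ms4a genes, Ms4a7 was the 1 called, against 0.135% of all genes called higher, and Ms4a6d had 0.53 (SE 0.17, adjusted p = 0.355). Ms4a7 was also the 1 call in a list of 14 genes of TREM2 signalling, in which Tyrobp, the adaptor of TREM2, had 0.51 (SE 0.20, adjusted p = 0.550) and Hcst, the related adaptor DAP10, 0.56 (SE 0.20, adjusted p = 0.458). Wfdc17, a small secreted protein with a WAP domain, stood at 707 to 1872 CPM (median 984) against 252 to 508 CPM (median 332), a log2 fold change of 1.61 (SE 0.24, adjusted p = 0.00147). Its groups were separate, and GrnKO animal 2 gave the highest value.

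The remaining genes called higher belong to no list used here. Anxa5, a calcium-dependent phosphatidylserine binder, stood at 331 to 440 CPM against 73.4 to 225 CPM (log2 fold change 1.21, SE 0.22, adjusted p = 0.0120). Syngr1, a vesicle membrane protein, stood at 3630 to 5547 CPM against 1734 to 3064 CPM (1.02, SE 0.19, adjusted p = 0.0120). Both were separate between the genotypes. Gng12, a G protein gamma subunit, had 0.79 (SE 0.17, adjusted p = 0.0478) and lost its call in 11 of the 12 fits that left out 1 animal. A pair of predicted genes outside the rule for named genes were called as well and were picked out here after their values were seen. Gm1673 stood at 119 to 343 CPM against 18.8 to 63.8 CPM (log2 fold change 2.40, SE 0.47, adjusted p = 0.0199). Gm5150 was counted 1 time in the 6 WT high libraries together and 2 to 220 times in each GrnKO high library (0.0880 to 7.63 CPM, adjusted p = 0.0436), so its level rested on GrnKO animals 2 and 4, and no fold change is given.

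Genes called lower were few: Grn itself, the chemokine gene Cxcl13, the immediate-early gene Egr1 and the interferon-induced gene Ifi27l2a. Cxcl13, which encodes a chemokine that attracts B cells, stood at 5.28 to 22.8 CPM (median 7.23) in GrnKO and 91.9 to 389 CPM (median 164) in WT. All GrnKO libraries were several-fold below the lowest WT library, and the log2 fold change was -4.44 (SE 0.91). The adjusted p of 0.0492 lay at the threshold, and the call was lost in 10 of 12 fits that left out 1 animal and under limma-voom. It was lost too without the high library of WT animal 1 alone (adjusted p = 0.0659). The call was kept in edgeR with only the 12 high libraries fitted (adjusted p = 0.000136) and with DESeq2 (adjusted p = 9.18e-06). Of 17 myeloid chemokines Cxcl13 was the 1 called, against 0.0284% of all genes called lower, 5 were positive, where 45.8% of all genes were, and the median was -0.38.

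Egr1, a transcription factor gene induced within minutes of stimulation, stood at 6.16 to 28.0 CPM (median 10.1) in GrnKO and 23.2 to 79.2 CPM (median 57.6) in WT. The groups overlapped, since WT animals 1 and 9 lay below GrnKO animal 8, and the log2 fold change was -1.89 (SE 0.40, adjusted p = 0.0479). Of 25 immediate-early and dissociation-induced genes, Egr1 was the 1 called, against 0.0284% of all genes called lower. Of the 25, 20 had a fold change below 0 and 11 an unadjusted p under 0.05 on the lower side (3.48% of all genes did). The median was -0.66, against -0.26 for the same genes in the low bin. Jun, a subunit of AP-1, stood at 99.0 to 160 CPM against 196 to 314 CPM without overlap (log2 fold change -1.01, SE 0.23, adjusted p = 0.0718). Its partner Fos had -1.22 (SE 0.30, adjusted p = 0.136), and Klf2, a zinc finger factor, -1.19 (SE 0.28, adjusted p = 0.111), both with overlap. Without the 4 libraries richest in choroid plexus transcripts 6 of the 25 were called lower, and with library size alone as the scale 3 were. Over all tested genes, the lower calls numbered 4 as reported, 17 without those 4 libraries and 7 with library size alone. This list also responds to tissue dissociation, which was done here with actinomycin D and anisomycin, blockers of transcription and translation, in all samples; the part of handling in the difference was not tested.

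**Figure D3:**
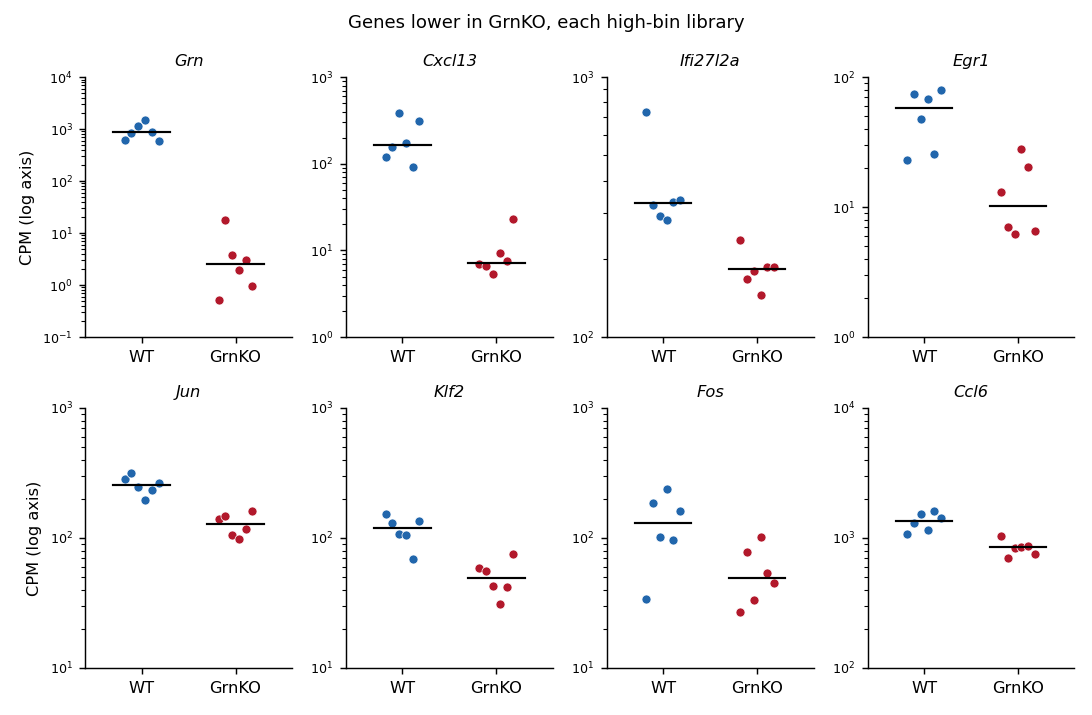
Level in CPM on a log axis of the 4 genes called lower in GrnKO (Grn, Cxcl13, Ifi27l2a, Egr1) and of 4 uncalled genes with small p on that side, 1 point per high-bin library with the group median as a black bar. Grn, Cxcl13, Ifi27l2a, Jun and Ccl6 are separate between WT (blue) and GrnKO (red), while Egr1, Klf2 and Fos overlap.

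Ifi27l2a, a small interferon-induced mitochondrial protein, stood at 145 to 236 CPM (median 183) in GrnKO and 283 to 734 CPM (median 328) in WT. The ranges were separate, the 734 CPM being WT animal 1, and the log2 fold change was -1.05 (SE 0.22, adjusted p = 0.0364). Without that library alone Ifi27l2a was no longer called (log2 fold change -0.80, adjusted p = 0.0874), which left 0 of 29 interferon response genes called. Without both libraries of WT animal 1 it kept its call at the threshold (-0.79, adjusted p = 0.04997), and without the 4 libraries richest in choroid plexus transcripts it also did (-0.79, adjusted p = 0.0340). Of the 29, 1 was called lower against 0.0284% of all genes, 4 were positive against 45.8%, 6 had an unadjusted p under 0.05 on the lower side against 3.48%, and the median was -0.60, or -0.54 without the library of WT animal 1 and -0.21 in the low bin. Ifi209 stood at 2.58 to 17.8 CPM against 22.03 to 45.6 CPM without overlap (log2 fold change -1.56, SE 0.56, adjusted p = 0.468). Xaf1, an interferon-induced gene, had -0.69 (SE 0.24, adjusted p = 0.431). The summed level of the list was 788 to 1389 CPM in GrnKO and 1323 to 2292 CPM in WT, meeting only at the edge between GrnKO animal 2 and WT animals 5 and 7.

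Antigen presentation showed 0 calls among 17 MHC class I and 13 MHC class II genes. Cd74, the invariant chain of class II, was nonetheless lower in every GrnKO library, at 44.6 to 75.9 CPM against 79.1 to 153 CPM (log2 fold change -0.77, SE 0.22, adjusted p = 0.251). The homeostatic microglia programme had 0 of 30 genes called and none whose groups were separate, with a median of -0.20 and 8 positive. Members of small p were Cx3cr1, the fractalkine receptor (log2 fold change -0.39, 95% interval -0.69 to -0.10, adjusted p = 0.480), and Slc2a5, a fructose transporter (-0.62, interval -1.10 to -0.15, adjusted p = 0.480). Microglia identity factors gave 0 calls of 21, with Smad3 at -1.69 (SE 0.59, adjusted p = 0.431) and Sall1 at -0.72 (SE 0.30, adjusted p = 0.624), whose highest values both came from WT animal 1. Complement (18 genes), Fc gamma receptors (6), phagocytic receptors (27), NF-kB cytokines (20), TGF-beta signalling (15), cell cycle (28) and senescence (12) gave 0 calls each, as did 34 ribosomal protein and 30 secretory pathway genes. The cell cycle list had the median farthest from 0 of these, 0.69 (0.55 with library size alone as the scale), with 25 of 28 positive against 45.8% of all genes and 3 with an unadjusted p under 0.05 on the higher side. The other medians lay between -0.19 for TGF-beta signalling and 0.26 for senescence, and those of NF-kB cytokines, ribosomal protein, secretory pathway and MHC class I genes turned from above to below 0 with library size alone as the scale.

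**Figure D4:**
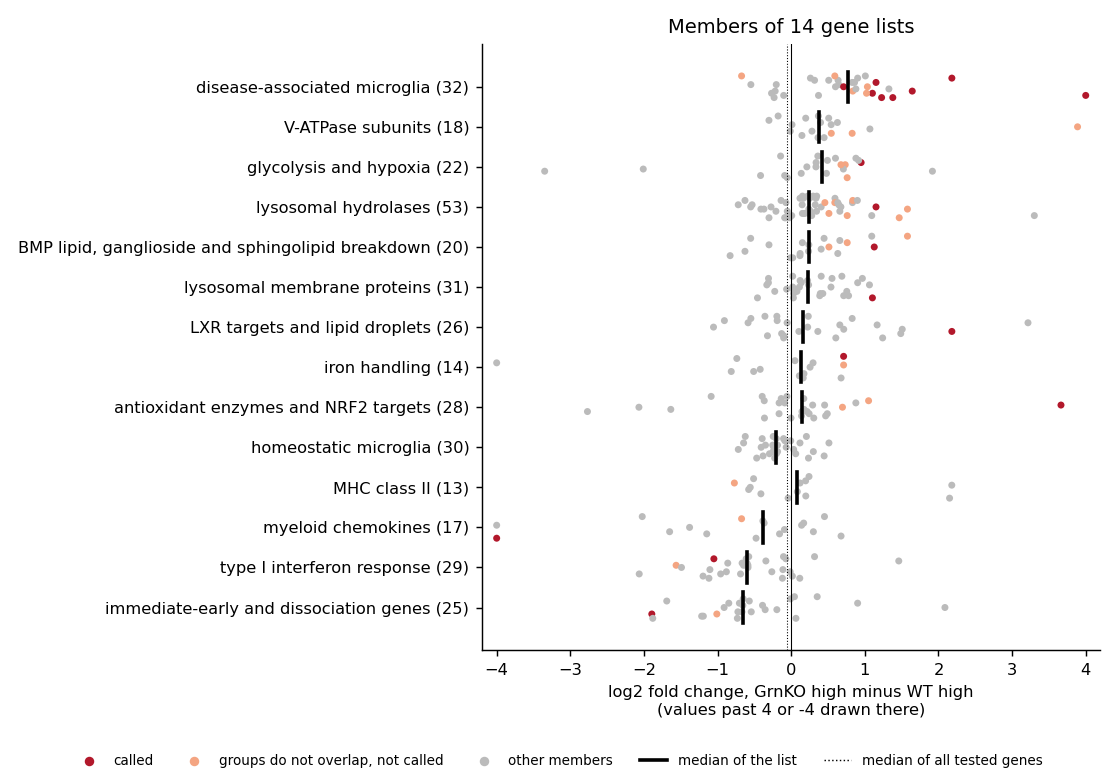
Log2 fold change between GrnKO high and WT high for each tested member of 14 gene lists (1 point per gene, number tested in brackets), with the list median as a black bar and the median of all tested genes as a dotted line. Called genes (red) and uncalled genes with separate groups (orange) lie mostly to the right in the disease-associated and lysosomal lists, and to the left in the chemokine, interferon and immediate-early lists, whose medians were -0.38, -0.60 and -0.66.

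Transcripts of other cell types were not called, with 0 calls and 0 separate genes in each of 12 marker lists, but several list medians were below 0. Choroid plexus and ependyma markers had a median log2 fold change of -2.45, astrocyte markers -1.58 (228 to 430 CPM summed in GrnKO, 310 to 2549 CPM in WT), endothelial markers -1.21 (786 to 1551 against 685 to 2696 CPM) and mural markers -1.20 (1.26 to 35.1 against 4.56 to 229 CPM). Neutrophil markers had -1.14, at 175 to 3701 CPM in GrnKO and 230 to 2991 CPM in WT, with 1 GrnKO library (animal 12) and WT animal 1 the highest. Border-associated macrophage markers had -0.58 and summed to 239 to 632 CPM against 432 to 1033 CPM, and Pf4 among them had -1.15 (SE 0.33, adjusted p = 0.260). Mgl2, a lectin of dermal and border macrophages and dendritic cells, had -2.63 (SE 0.63, adjusted p = 0.125). Mgl2 is not in that list and was named for its small p on the lower side. B cell markers had -0.48 (501 to 773 against 227 to 2697 CPM), neuron markers -0.84 (2.39 to 13.8 against 1.88 to 18.6 CPM) and oligodendrocyte markers -0.08 (116 to 659 against 182 to 2476 CPM). Monocyte markers had 0.77 (18.9 to 184 against 21.6 to 92.3 CPM), T and NK cell markers 0.85 (72.9 to 346 against 93.9 to 231 CPM) and erythrocyte markers 0.97 (16.0 to 11079 against 16.8 to 6622 CPM). The filter on low counts passed 9 of 11 choroid plexus, 11 of 13 neutrophil, 19 of 22 T and NK cell, 10 of 11 B cell, 6 of 8 erythrocyte, 13 of 14 oligodendrocyte, 8 of 14 neuron and 9 of 13 mural markers, and all those of the other lists. The summed ranges overlapped between genotypes for each of the 12 lists, and their part in the results above was not tested. Without the high library of WT animal 1 the medians were -1.41 for choroid plexus and ependyma, -0.88 for astrocyte, -0.62 for endothelial, -0.52 for mural, -0.61 for neutrophil, -0.67 for border-associated macrophage, -0.72 for B cell and -0.89 for neuron markers. They were 0.54 for monocyte, 1.14 for T and NK cell and 2.06 for erythrocyte markers, and that of oligodendrocyte markers turned to 0.54. Leaving out the high library of WT animal 1 gave 26 calls, of which 20 were among the 23, with Ifi27l2a, Cxcl13 and Gm5150 lost. Leaving out the 4 libraries richest in choroid plexus transcripts gave 61 calls, which held all 23. Of those 4, only the high library of WT animal 1 belongs to the high comparison, and the others are low-bin libraries.

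Within the knockouts, the same few animals were often highest or lowest. Over the 19 genes called higher, the top GrnKO library was that of animal 2 in 13 cases and that of animal 6 in the other 6. The lowest was animal 4 in 8 cases, animal 12 in 5, animal 8 in 3, animal 10 in 2 and animal 6 in 1. Animals 2 and 6 are both labelled male, while animals 4, 8 and 12, lowest in 16 of the 19, are labelled female. The library of animal 2 was also the highest of the 6 in summed level for 8 of the 18 lists that hold no called gene, among them homeostatic, V-ATPase, ribosomal protein and Fc gamma receptor genes. It had the lowest TMM scaling factor of the 6, 0.833 against 0.907 to 0.994, and a lower factor raises the levels given in CPM. The part of scaling in this order was not tested. Because each animal gave 1 high library, an animal and its library preparation cannot be told apart.

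Fitted within each sex label, with 3 animals per genotype, the genotype effect kept its sign for every called gene. Among animals labelled male 10 genes (0.071%) were called and among those labelled female 3 (0.0213%), and Gpnmb, Fabp5 and Cd63 were called in both. Gpnmb had a log2 fold change of 5.02 in those labelled male and 6.10 in those labelled female, Fabp5 2.05 and 2.32, and Cd63 1.05 and 1.16. Ms4a7 had 2.01 and 1.18, a difference with an unadjusted p of 0.0528 and an adjusted p of 0.990. No gene was called in the test of the difference between labels (712 genes had an unadjusted p under 0.05).

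The low bin of the same animals served as a contrast. Its libraries held more transcripts of some other cells: neutrophil markers summed to 1709 to 33127 CPM, against 175 to 3701 CPM in the high bin, and monocyte markers to 365 to 2285 CPM, against 18.9 to 184 CPM. Choroid plexus and ependyma markers reached 82915 CPM in WT animal 9 and 28816 CPM in the highest GrnKO low library. Erythrocyte markers summed to 54.6 to 37603 CPM in GrnKO and 6.96 to 55.2 CPM in WT low libraries, with a median log2 fold change of 9.52. The part of these transcripts in the low-bin and interaction values was not tested. In the low bin 46 genes (0.326%) were called, and 16 of the 23 genes called in the high bin were called in both bins with the same sign. For 14 of the 23 the high-bin fold change was nearer to 0. Gpnmb had a log2 fold change of 5.54 in the high bin and 7.36 in the low bin, Igf1 1.23 and 2.59, Cst7 1.38 and 2.30, and Fabp5 2.18 and 2.86. The unadjusted p of the genotype by bin interaction was 0.00111, 0.000152, 0.0137 and 0.0135 for these 4 genes. None passed adjustment, since the interaction gave 0 calls over 14090 genes in edgeR (738, or 5.24%, had an unadjusted p under 0.05). DESeq2 called 66 genes for the interaction, among them Igf1 (adjusted p = 0.00389) and Gpnmb (adjusted p = 0.0432). The log2 values of the 66 ran from -27 for Sh2d1a to 26.3 for Gm43890, and the erythrocyte marker Hbb-bs was among them at -9.18.

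The other 7 genes were called in the high bin and not in the low bin. Ms4a7 had 1.59 in the high and 1.02 in the low bin (adjusted p in the low bin 0.0710), Anxa5 1.21 and 0.88 (0.0808), Bnip3 0.95 and 0.56 (0.220), Smpdl3a 1.13 and 0.66 (0.270) and Egr1 -1.89 and -1.70 (0.0552). Ifi27l2a had -1.05 and -0.18 (low-bin adjusted p = 0.883), with an unadjusted interaction p of 0.00763. The seventh was Gm5150. A difference between the bins was not shown for any of them, as their adjusted interaction p-values were 0.786 to 1.

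**Figure D5:**
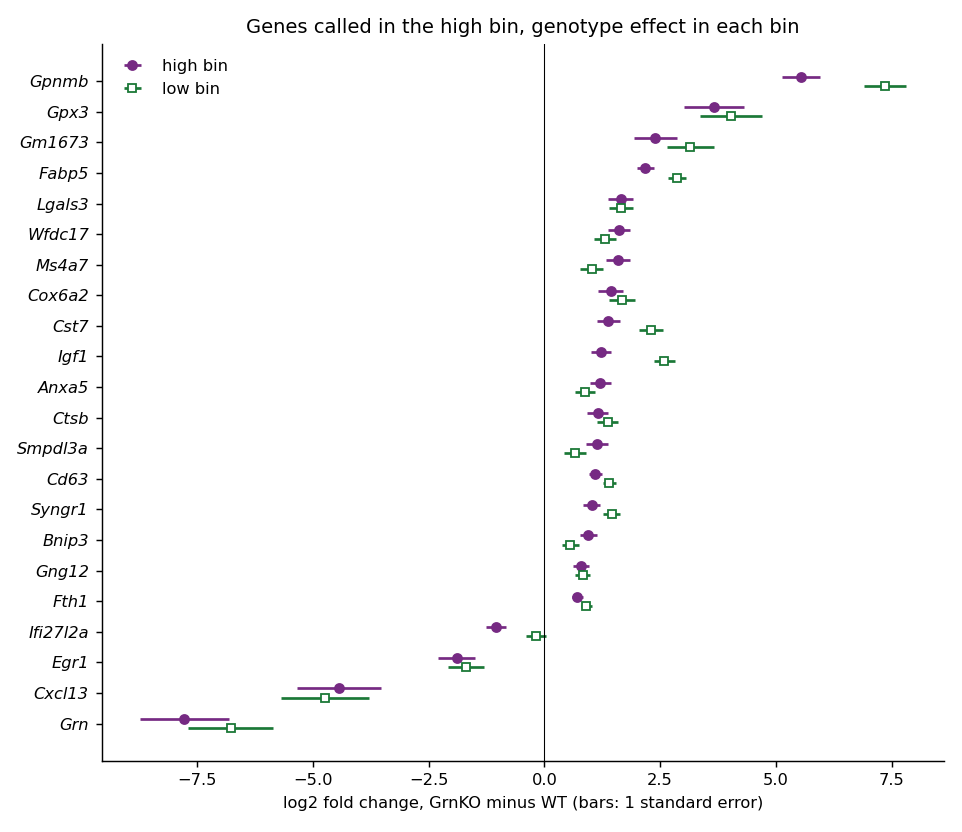
Log2 fold change between GrnKO and WT for the genes called in the high bin other than Gm5150, in the high bin (filled circles) and the low bin (open squares), with bars of 1 standard error. Every gene has the same sign in both bins, and Gpnmb (5.54 and 7.36), Igf1 (1.23 and 2.59), Ifi27l2a (-1.05 and -0.18), Fabp5 (2.18 and 2.86) and Cst7 (1.38 and 2.30) show the widest gaps relative to their errors.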

How the data were processed

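Per the labels' protocols, cDNA was made from polyadenylated RNA of 1000 sorted cells per library with a SMART-Seq 3′ kit, amplified, and brought to a fixed input amount for Nextera XT; reads are single-end. Per the submitters' processing notes, the tools were R 4.5.1, edgeR 4.6.2, Salmon 1.10.1 and STAR 2.7.9a, and the build was GRCm39; the sources used here do not state how strand was handled. The authors deposited estimated counts per gene with 2 significant digits; of values over 0 and under 10, 8.28% were not whole (tolerance 1e-09). The deposited sample sheet holds the authors' library size and normalization factor, a ratio, used for 1 alternative. A deposited table of normalized CPM, a signal scaled by the authors, was not used. No per-sample column was left unmatched.

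Whole counts had been assumed, and the authors' estimated counts were therefore rounded. Of 56980 genes, filterByExpr removed 42890. An edgeR 4.0.16 quasi-likelihood model (robust, TMM scaling; R 4.3.3) used all 24 libraries, group terms and a sex label term, so that the low-bin libraries share in the estimate of spread. Adjusted p-values are Benjamini-Hochberg over all 14090 tested genes, with 0.05 as the threshold for a call. Tests were 2-sided, and intervals are 95%. Levels are CPM on TMM-scaled library sizes and are not scaled by gene length, so they are compared between libraries and not between genes. Groups were called separate, or without overlap, where all 6 libraries of one lay above all 6 of the other. Alternatives used DESeq2 1.42.0 and limma 3.58.1, and figures matplotlib 3.10.9 in Python 3.11.15. The code was tested on simulated data. Among 30 pairs of libraries of a group, 0 were identical, with a chi-square per gene of at least 106. Reads carry no molecular identifiers, so depth limits the counting error only in part.

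The members, the gene lists and the tests were chosen with earlier results of these data known. Named genes are Grn, every called gene with a symbol other than a predicted-gene name, up to 3 uncalled genes of smallest p in each list described, and up to 6 uncalled genes of smallest p in each direction with at least 10 CPM in the higher group; some of these are left out of the text, and some are not reported here. Genotypes share no animal. The 2 bins come from the same animals, by the animal number in the labels, so the animal was also fitted as a block for the interaction. Within an animal, departures from the group mean correlated between bins at r = -0.0481 to 0.361 (median 0.112, 7211 genes).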

Additional observations from a re-analysis of the deposited data

Results flagged for a closer look

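Values were singled out where the highest or lowest of a group's 6 libraries stood apart from the other 5 by Dixon's criterion at the 95% level. Of 170 groups of values tested, 21 (12.4%) were, each through its highest library, and 9 of the 21 were the high library of WT animal 1. The criterion's level assumes independent values of normal spread. These groups are CPM values that share the same 12 libraries, so the share by chance is not known.

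For WT animal 1 the values were 734 CPM for Ifi27l2a (next highest 336), 73.4 CPM for Smpdl3a (41.7), 48.0 CPM for Vcl, the gene of vinculin (12.9), 22.6 CPM for Hpse, the gene of heparanase (6.00), 119 CPM for Smad3 (38.8) and 294 CPM for Sall1 (119.6). The same library held 7.91% mitochondrial counts (2.60), 2549 CPM of astrocyte markers (597) and 21099 CPM of choroid plexus and ependyma markers (2024). Of the called genes among these, Ifi27l2a lost its call without that library alone and kept it, at an adjusted p of 0.04997, without both libraries of the animal, while Smpdl3a kept its call without that library.

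Among other WT high libraries, animal 5 stood apart in Gpnmb at 29.6 CPM (next highest 9.04) and in Ahnak2, a large scaffold protein gene, at 3.59 CPM (0.113), while animal 11 did in Mgl2 at 86.4 CPM (24.8) and animal 3 in Gm5150 at 0.0324 CPM (0).

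In GrnKO high libraries, animal 4 stood apart in Grn at 17.9 CPM (next highest 3.74). Animal 12 did in Cxcl13 at 22.8 CPM (9.24), in monocyte markers at 184 CPM (53.5) and in neutrophil markers at 3701 CPM (627). Animal 2 did in Prdx4 at 381 CPM (283) and in the summed V-ATPase subunits at 9860 CPM (8130), and animal 6 in Tpi1, a glycolytic enzyme gene, at 616 CPM (396) and in endothelial markers at 1551 CPM (1013).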

How the results depend on the processing

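Direction held for all 23 called genes in every alternative in which they were tested, and Gpnmb, Fabp5 and Cd63 were called in each. The number of genes called, 23 as reported, was 284 with no filter on low counts (104 higher, 180 lower; 22 of the 23 among them), 190 with DESeq2 (95 and 95; all 23), 46 with limma-voom (38 and 8; 21) and 49 with limma-voom and the animal as a random replicate block (39 and 10; 21). With only the 12 high libraries it was 29 (24 and 5; 18 of the 23, with Egr1, Gng12, Ifi27l2a and Smpdl3a lost and Gm5150 not tested), and with no sex label 18, all among the 23, with Bnip3, Fth1, Gm1673, Ifi27l2a and Smpdl3a lost. Alternatives chosen after seeing the data gave 61 without the 4 libraries richest in choroid plexus markers, and 10 and 3 within the animals labelled male and female, where Grn in the latter kept its size at -7.14 and lost its call (adjusted p = 0.166). Leaving out each of the 12 animals gave 8 to 50 calls: 8 without GrnKO animal 2, 10 without WT animal 3, 12 without WT animal 7, 13 without GrnKO animal 6 and 50 without WT animal 1; 8 of the 23 genes kept their call in each of these fits. Genes with separate groups numbered 151 as reported, 190 to 255 without 1 animal, where fewer libraries make separation easier, and 255 without the high library of WT animal 1. The interaction, with 0 calls as reported and 0 with the animal as a fixed replicate block, gave 329 with no filter, 66 with DESeq2 and 1, Il1r1, with limma-voom and the random block. The cause of these differences was not tested. The p-values of the main fit rest on the spread between libraries within groups, over all 24 libraries of both bins. That fit has no animal term, so the 2 libraries of an animal count as separate ones.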
